A study of Saccharomyces cerevisiae with 6 samples.

Results

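The data described here are the transcriptional response of a Saccharomyces cerevisiae strain lacking ERG6 to compound 089, on 2 of the 6 arrays of the series. The 2 arrays were chosen by their titles, which name the ERG6 deletion strain treated with 089 against the same strain untreated, and they are biological replicates per the series text. The ERG6 deletion strain is BY4742derg6, a haploid of mating type alpha with his3, leu2, lys2 and ura3 mutations, in which a kanMX4 cassette replaces ERG6. The other 4 arrays hold the parental strain BY4742, with the same auxotrophic mutations, and BY4742dsnq2, in which kanMX replaces SNQ2, on 2 arrays each. In all 3 strains dense cultures were shaken for 4 h at 28 °C in YPD, a rich glucose medium, at pH 4.8, with 089 at 0.2 mM or without it. The labels name 089 as an ethilamide of a dioxa-aza-bicycle-octane that carries a benzydril and a phenil group, and they name no solvent given to the untreated cells. On each array, cDNA from treated cells carried Cy5 and was hybridised with Cy3-labelled cDNA from the untreated culture of that strain.

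Erg6 adds the methyl group at C-24 of the sterol side chain, a late step towards ergosterol. Ergosterol is the main sterol of the yeast plasma membrane, and cells without Erg6 live on other sterols and are known for a membrane that lets many small molecules in more readily. Snq2 is an ATP-binding cassette transporter of the plasma membrane that exports a range of drugs. The comparison asks which transcripts changed when cells with an altered sterol met 089, and where that response differed from the response of the other 2 strains. A value here is the log2 ratio of treated over untreated cells on 1 array, so that 1 stands for a 2-fold higher signal after treatment. The base and the direction are taken from the titles and channels as likely, and are not stated in the sources used here. Were the direction opposite, every sign would turn. A ratio gives no expression level, and in a bulk culture a change per cell and a change in the share of cells that express a gene cannot be told apart. Dyes were never swapped, and a gene that favours 1 dye keeps that bias in its ratio.

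Of 6362 genes, 3478 (54.7%) passed an adjusted p of 0.05 in the ERG6 deletion strain, in the limma fit of 1 mean per strain to all 6 arrays. Of all genes, 23.2% rose and 31.5% fell, or 29.4% outside 183 genes at or below -3 on either array. At least 2-fold higher were 5.6% and at least 2-fold lower 5.49%, or 3.41% outside the genes at or below -3. With the arrays centred on their medians 27.4% rose and 24.8% fell, and higher calls made up 52.5% of all calls instead of 42.4%. The median gene lay at -0.11 in the ERG6 deletion strain against -0.02 in the parental and -0.03 in the snq2 deletion strain. The replicates differed more than in the other strains: they correlated across genes at r = 0.713 (0.755 without the genes at or below -3), against 0.901 and 0.916. The median gap between replicates was 0.20 on the log2 scale, against 0.15 in the parental and 0.17 in the snq2 deletion strain, and 342 genes (5.38%) had a gap over 1. Because the fit pools the spread of the 3 strains, p-values in the ERG6 deletion strain can be too small. Control spots without a gene passed as well: 74% of 539 spots named empty, with a median of 2.11, and 66% of 144 spots named Blank, with a median of -0.27. On the ERG6 deletion arrays the empty spots had medians of 2.47 and 1.76, against 0.72 and 0.66 on the parental and 0.80 and 0.23 on the snq2 deletion arrays. A call therefore marks a ratio that repeated between arrays, and the size of the ratio and the share of all genes called have to be read beside it.

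**Figure D1:**
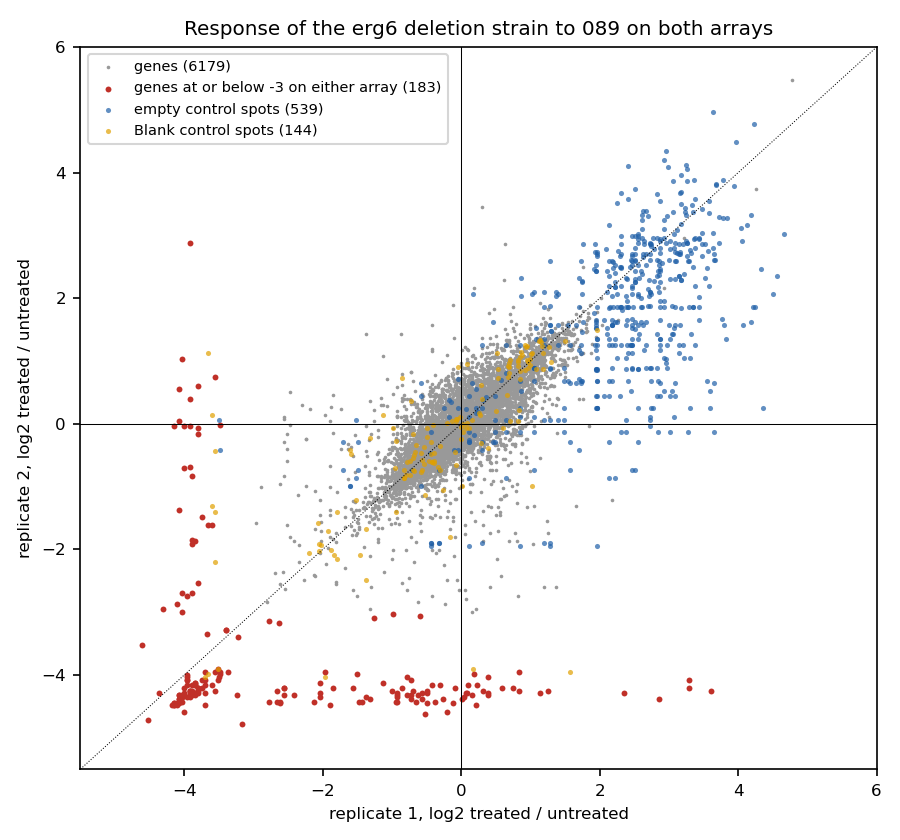
Log2 ratio of treated over untreated cells on replicate 1 (horizontal) and replicate 2 (vertical) of the ERG6 deletion strain; grey points are genes, red points the 183 genes at or below -3 on either array, blue points empty and yellow points Blank control spots, and the dotted line marks equal values. Most genes lie along the line, the genes at or below -3 form bands near -4 on 1 or both arrays, and most empty spots lie above 1 on replicate 1.

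Loci that the strain lacks or carries as mutants were read first. ERG6 itself, replaced by the cassette in treated and untreated cells alike, gave -0.65 and -0.85, a mean of -0.75 ± 0.11 (SE of the fit, as after every ± below, n = 2 arrays) with an adjusted p of 0.00347. The auxotrophic markers gave -0.22 and -0.14 for HIS3, -0.93 and -1.03 for LEU2, -0.38 and -0.63 for LYS2 and -0.62 and -0.65 for URA3. LYS2 and URA3 passed the threshold and HIS3 and LEU2 did not, although the LYS2 call was lost without replicate 2. All 5 loci lay below 0 on both arrays, with means from -0.98 to -0.18, and so did 3017 of all 6362 genes. The labels do not say how much of each marker gene is deleted, and the ratio cannot check that the strain lacks ERG6, since neither channel should hold its RNA.

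Markers of mating type were read as a check of the labelled alpha cells, and a ratio tells only whether they moved. All 4 alpha markers fell, beside 31.5% of all genes, with means from -0.71 to -0.38. They were MF(ALPHA)1 and MF(ALPHA)2, which encode the alpha pheromone, STE3, the receptor for a-factor, and SAG1, the alpha agglutinin. The call of MF(ALPHA)1 was lost without either ERG6 deletion array and with centred arrays. Of the 6 markers of a cells, STE2 and MFA2 fell, at -0.38 and -0.83, STE6, the exporter of a-factor, rose to 1.06, and MFA1, BAR1 and AGA2 did not pass. The call of STE2 was lost without replicate 2 and with centred arrays. Of the meiotic markers IME1 rose, with values of 0.32 and 0.74 and a call lost without replicate 2, and IME2 and SPO11 did not pass. RME1, a repressor of meiosis and so no marker of it, gave -0.12 and 0.45 and did not pass.

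The highest responses belonged to genes of several pathways. SOL4, a 6-phosphogluconolactonase of the pentose phosphate pathway, gave 4.77 and 5.48 on the 2 arrays. ALE1, an acyltransferase that makes phospholipids from lysophospholipids, gave 4.26 and 3.74. YRR1, a zinc cluster activator of multidrug resistance genes, gave 3.22 and 2.96. OCA6 gave 2.92 and 2.16. These 4 genes and the unannotated frame YPR050C are the only 5 of 6362 genes at or above the median of the empty spots, 2.11, and whether they share its cause was not tested. SOL4 was high on single arrays of the other strains too, at 2.61 and 0.22 in the parental and 0.79 and 3.89 in the snq2 deletion strain. ALE1 was above 1 on every array, between 1.43 and 2.31 outside the ERG6 deletion strain. YRR1 was not: its values were 0.98 and 0.64 in the parental and -0.97 and -0.79 in the snq2 deletion strain.

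The next 11 of the 15 highest genes lay between 1.65 and 2.27 on each array. They include NCE103, the carbonic anhydrase, at 1.86 and 1.89, and STM1, a protein that binds and protects idle ribosomes, at 1.95 and 1.77. CLN3, the G1 cyclin that links growth to division, gave 1.76 and 1.79, and COX7, a subunit of cytochrome c oxidase, 1.72 and 1.72. The ribosomal protein genes RPL17A, RPL3 and RPL40B had means of 1.76, 1.77 and 1.70. ADY2, an acetate transporter, RGI1, a gene induced in respiratory growth, ORA1, an NADP-dependent dehydrogenase, and LOS1, a tRNA export receptor, made up the rest, with means of 1.80, 1.73, 2.01 and 1.96. The replicates of NCE103, CLN3, COX7 and ORA1 differed by less than 0.05. NCE103, CLN3, ADY2 and RGI1 were higher still in the snq2 deletion strain, with means of 2.96, 2.49, 2.31 and 2.55 there.

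**Figure D2:**
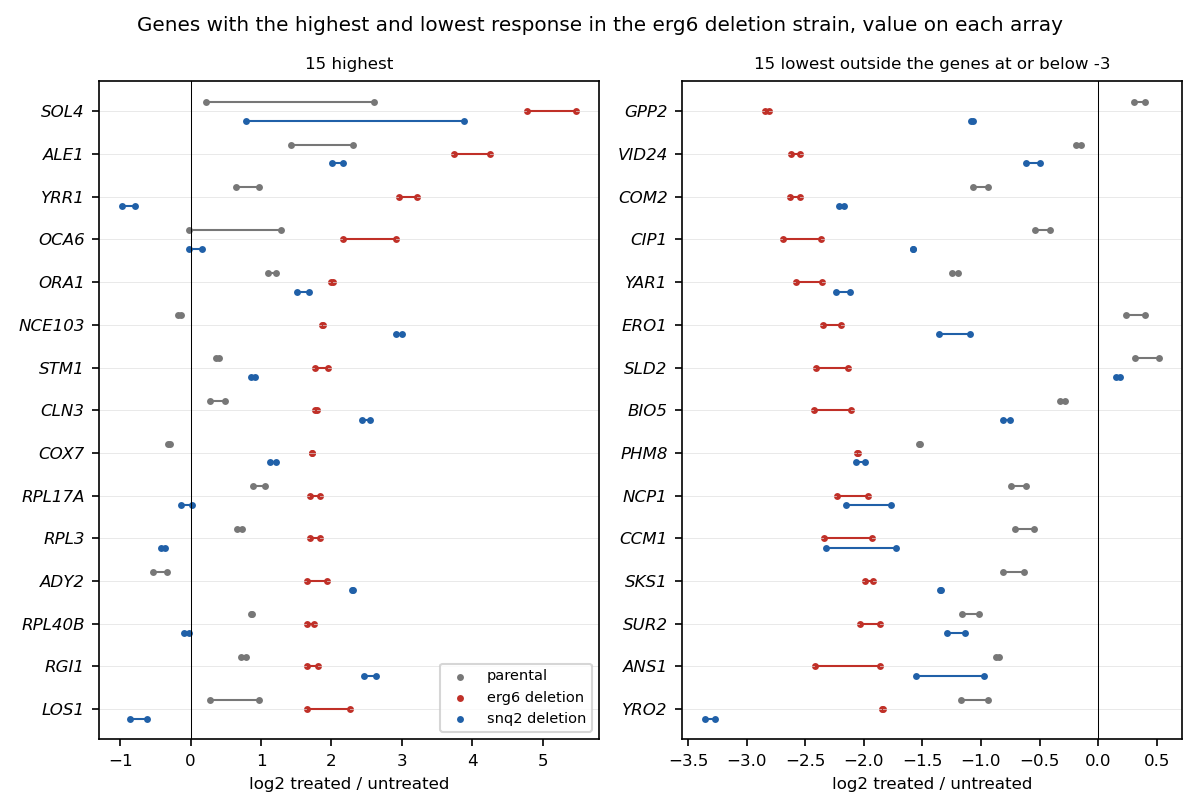
Log2 ratio of treated over untreated cells on each array for the 15 genes with the highest (left) and the 15 with the lowest response (right) in the ERG6 deletion strain; points are single arrays, joined by a line between the 2 replicates of a strain. The ERG6 deletion arrays lie at 1.65 or higher for every gene on the left and at -1.84 or lower for every gene on the right.

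The lowest responses outside the genes at or below -3 were led by GPP2, a glycerol-3-phosphate phosphatase of glycerol synthesis, at -2.81 and -2.85 (adjusted p 5.92e-05). VID24, the receptor by which the GID ubiquitin ligase takes up gluconeogenic enzymes, gave -2.62 and -2.55. The transcription factor gene COM2 gave -2.54 and -2.63 and CIP1, an inhibitor of G1 cyclin-dependent kinase, -2.69 and -2.37. YAR1, a chaperone of the ribosomal protein Rps3, had a mean of -2.47 ± 0.09. ERO1, the thiol oxidase of the endoplasmic reticulum, and SLD2, needed to start DNA replication, each had a mean of -2.27. For all 7 of these genes the ERG6 deletion arrays lay below every array of the other strains.

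The other 8 of the 15 lowest genes had means from -2.27 to -1.84. BIO5, a transporter of a biotin precursor, gave -2.11 and -2.42, PHM8, a phosphatase induced by low phosphate, -2.05 and -2.05, and NCP1, the reductase that passes electrons to cytochromes P450 of sterol synthesis, -1.96 and -2.23. CCM1, a mitochondrial RNA factor, SKS1, a kinase of the response to low glucose, SUR2, the sphinganine hydroxylase, and the genes ANS1 and YRO2 completed the set. PHM8 fell by a like amount in the other strains, with means of -1.52 and -2.03, and its difference from them did not pass (adjusted p 0.0531). YRO2 was lower in the snq2 deletion strain, at -3.27 and -3.36. GPP2 and SLD2 were above 0 on both parental arrays, at 0.40 and 0.31 for GPP2 and 0.52 and 0.32 for SLD2.

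Genes of ergosterol synthesis did not move as a block. In the mevalonate part of the pathway, which ends with farnesyl diphosphate, 4 of 9 genes rose (44.4%, against 23.2% of all genes) and none fell, with 3 rising when either ERG6 deletion array was left out. HMG1, the main HMG-CoA reductase, gave 0.52 and 0.99, and ERG20, farnesyl diphosphate synthase, 1.04 and 0.46. ERG12 and ERG10 had smaller means of 0.44 and 0.34, and both calls were lost without replicate 1. The median of the 9 genes was 0.27. From squalene synthase on, 5 of 14 genes rose and 4 fell, with a median of 0.26.

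In that later section ERG25, the C-4 methyl sterol oxidase, rose most, at 1.31 and 1.36 (mean 1.34 ± 0.08). ERG26, the decarboxylase that acts next to it on the C-4 methyl groups, fell, at -0.71 and -0.95. ERG9, squalene synthase, rose with 1.00 and 0.92, and was low in the parental strain, at a mean of -2.89. ERG1, the squalene epoxidase, rose at 0.51 and 0.55. ERG11, the lanosterol demethylase and the target of azole drugs, gave 0.26 and 0.24 and did not pass. ERG24, the C-14 reductase of the step after Erg11, fell at -0.51 and -0.58. The electron donor of Erg11 and of Erg5, NCP1, fell with a mean of -2.10 ± 0.13.

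Past the missing Erg6 step, ERG2, the C-8 isomerase, gave 0.60 and 0.37, with its call lost without replicate 1. ERG3, the C-5 desaturase, rose to a mean of 0.81 ± 0.08, near the parental value of 0.98 and apart from the snq2 deletion value of -1.79. ERG5, the C-22 desaturase, fell at -0.49 and -0.52, and ERG4, the last enzyme, gave 0.16 and 0.40 and did not pass. The enzymes after the Erg6 step thus include genes that rose and a gene that fell. The sterol regulators UPC2 and ECM22 gave -0.15 and 0.05 and -0.37 and -0.38, neither past the threshold. HAP1, the heme-dependent activator of sterol and respiratory genes, rose at 1.12 and 0.74, while ROX1, a repressor of hypoxic genes, fell at -1.16 and -0.87. Among genes of sterol storage and traffic, NCR1, the yeast relative of the Niemann-Pick protein, rose at 1.00 and 0.99, and TGL1, a sterol ester hydrolase, fell at -0.90 and -0.82. Of the oxysterol-binding proteins, SWH1 rose to 0.92 and HES1 and KES1 fell to -0.83 and -0.69.

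**Figure D3:**
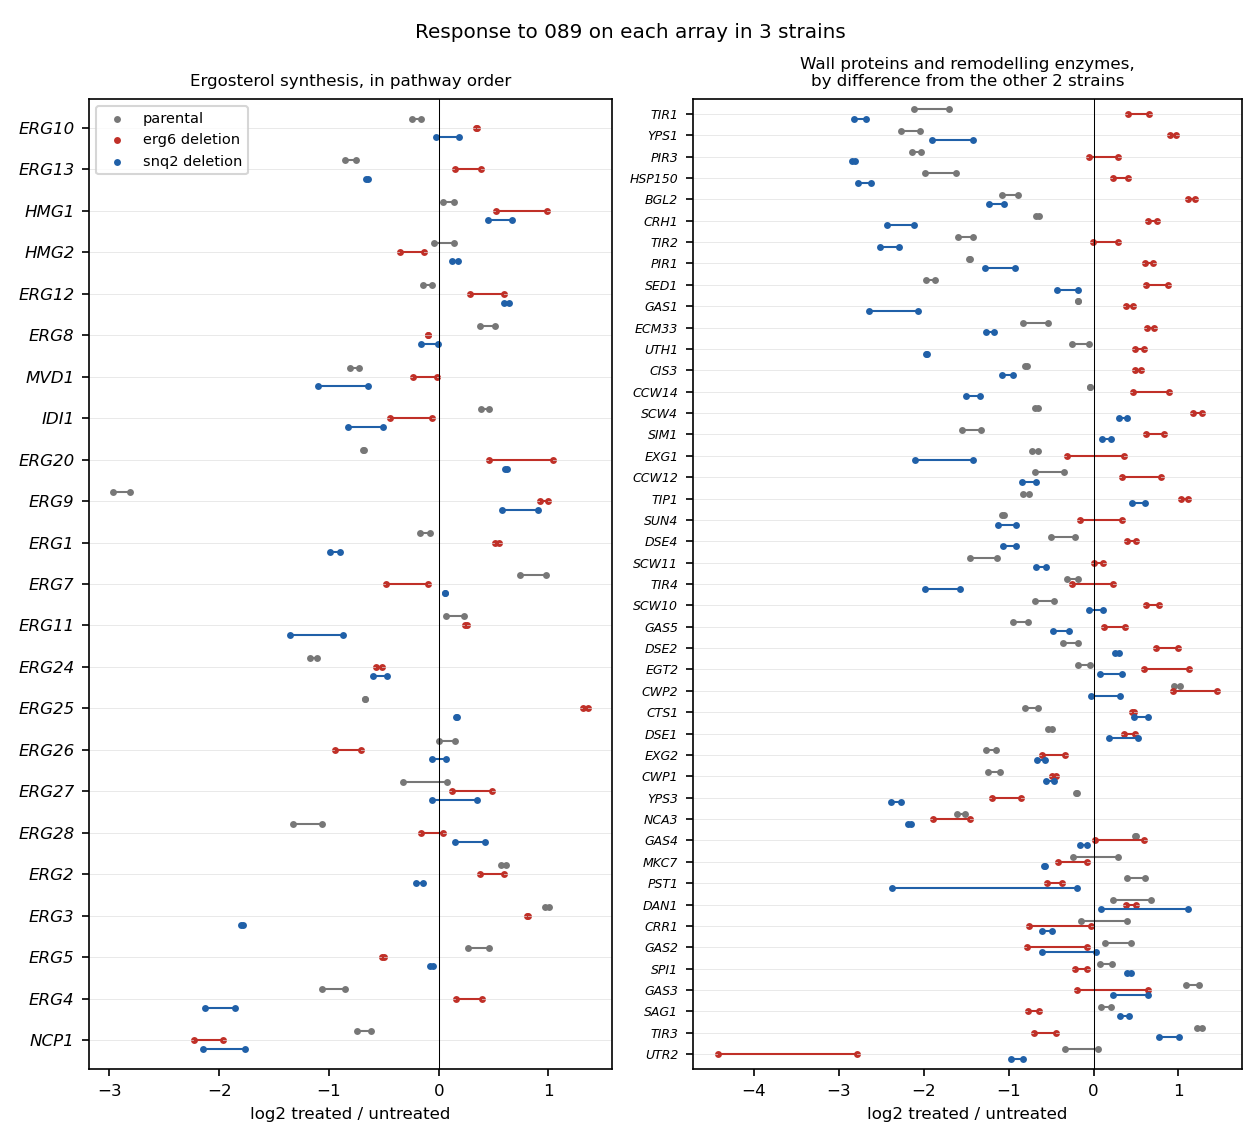
Log2 ratio of treated over untreated cells on each array for genes of ergosterol synthesis in pathway order (left) and for wall proteins and remodelling enzymes (right), with points for single arrays and lines between the replicates of a strain. Sterol genes of the ERG6 deletion strain lie on both sides of 0, and most wall genes lie further right in the ERG6 deletion strain than in the other 2 strains.

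Genes of fatty acid synthesis and of plasma membrane organisation rose more often than genes in general. Of 15 genes of fatty acid synthesis and activation 8 rose and 3 fell (53.3% and 20%, against 23.2% and 29.4% of all genes, the fallen counted outside the genes at or below -3), and 1 fell with centred arrays. FAS1 and FAS2, the subunits of fatty acid synthase, had means of 0.92 ± 0.08 and 0.76 ± 0.09. OLE1, the only fatty acid desaturase of this yeast, gave 1.76 and 1.13, and ACC1, acetyl-CoA carboxylase, 1.21 and 0.91. FAS1 and OLE1 were below 0 in the parental strain, with means of -1.80 and -1.22. ELO1, an elongase of medium chains, was among the genes at or below -3.

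Of 18 flippases and plasma membrane organisers, 9 rose (50%, against 23.2% of all genes) and none fell, or 8 to 10 rose and 1 fell without either ERG6 deletion array. Flippases move phospholipids to the inner leaflet, and eisosomes are furrows of the plasma membrane built on Pil1 and Lsp1. DRS2, a flippase of the Golgi, gave 1.15 and 1.28. PIL1 gave 1.07 and 0.91, LSP1 1.01 and 1.24, and NCE102, a sensor of sphingolipids in eisosomes, 1.07 and 0.93. The eisosome genes were low in the parental strain, with means of -1.20, -2.10 and -2.47 for PIL1, LSP1 and NCE102, and PIL1 and LSP1 were at 1.02 and 0.72 in the snq2 deletion strain. PUN1, another protein of these domains, had a mean of 1.15.

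Sphingolipid genes went both ways, with 7 of 30 rising (23.3%, against 23.2% of all genes) and 11 falling (36.7%, against 29.4%). With centred arrays, where 24.8% of all genes fell, 8 of the 30 fell. The number rising was 3 without 1 of the ERG6 deletion arrays. SUR2 fell with -2.03 and -1.86, and TSC3, a small activator of serine palmitoyltransferase, with -1.26 and -1.59. ORM2, a brake on the same enzyme, rose with 1.26 and 1.25, and ELO3, the elongase of very long chains, with 1.16 and 0.85. Among 33 phospholipid and inositol genes 8 rose and 7 fell, near the shares of all genes. PAH1, the phosphatidate phosphatase, gave 1.31 and 1.31 beside the high value of ALE1.

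The main drug efflux genes had small responses, beside the high response of YRR1. Pdr1 and Pdr3 are the main activators of drug transporter genes, and Pdr5, Snq2 and Yor1 are their best known targets. PDR5 gave 0.54 and 0.35, a mean of 0.44 ± 0.09 with an adjusted p of 0.011, and the call was lost without replicate 1. SNQ2 gave 0.22 and 0.11 and did not pass. YOR1 gave -0.29 and -0.34, past the threshold, but not with the arrays centred or without either ERG6 deletion array. PDR1 gave 0.16 and 0.12 and did not pass, and PDR3 fell at -0.85 and -0.67. Of 13 ABC drug transporters 2 rose and 1 fell, and 3 rose and none fell with centred arrays. The other that rose was BPT1, a transporter of the vacuolar membrane, at 1.11 and 1.07.

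The same genes differed between strains. PDR5 was at -2.39 and -2.42 in the snq2 deletion and -0.09 and -0.24 in the parental strain, and its response in the ERG6 deletion strain exceeded the mean of the others by 1.73 ± 0.11 (adjusted p 0.00037). PDR1 was at -1.26 and -1.31 in the parental and -1.68 and -1.94 in the snq2 deletion strain, below its values in the ERG6 deletion strain by a difference of 1.69 ± 0.12. All 11 of the other listed Pdr1 and Pdr3 targets passed the threshold, beside 54.7% of all genes, 4 of them higher and 7 lower, or 3 or 4 higher and 5 or 6 lower without 1 ERG6 deletion array. LPX1, a peroxisomal lipase, rose to 0.88 and the oxidoreductase gene YPL088W to 0.69, while PDR16, a phosphatidylinositol transfer protein, fell to -1.04 ± 0.09 and HXT11 to -0.96. Of 15 drug:proton antiporters 2 rose and 3 fell. AQR1 fell most, at -2.03 and -1.71, TPO4 rose at 0.83 and 0.60, and TPO2 was at or below -3 on both arrays, at -3.36 and -3.95.

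Cell wall genes showed the ERG6 deletion strain apart from the others. Wall proteins anchored to glucan and the glucanases that remodel them numbered 45, of which 21 rose (46.7%) and 6 fell (13.3%). The median of the list was 0.35 and 0.46 on the ERG6 deletion arrays, -0.49 and -0.66 on the parental and -0.66 and -0.61 on the snq2 deletion arrays. The response in the ERG6 deletion strain exceeded the mean of the other strains for 32 of 45 members (71.1%, against 27% of all genes) and fell short of it for 3 (6.67%, against 30.8%). The median difference was 1.00. The list was drawn up with earlier results of these data known.

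Among its members SCW4, a glucanase-like wall protein, gave 1.17 and 1.27, BGL2, an endo-glucanase, 1.19 and 1.11, and TIP1, a mannoprotein, 1.03 and 1.11. CWP2, a major mannoprotein, gave 1.45 and 0.93. Within the list the difference from the other strains was largest for YPS1, TIR1, PIR3 and HSP150, where the strains moved in opposite ways or only the others moved. YPS1, an aspartyl protease of the cell surface, was at 0.90 and 0.97 against -2.27 and -2.05 in the parental and -1.42 and -1.90 in the snq2 deletion strain. TIR1 was at 0.40 and 0.65, with its call lost without replicate 2, against values from -2.82 to -1.70 elsewhere. PIR3 was at -0.05 and 0.28, not past the threshold, against values from -2.84 to -2.04. Members that fell in the ERG6 deletion strain include NCA3, at -1.89 and -1.46, and YPS3, at -0.86 and -1.20. UTR2, a chitin transglycosylase, was at -2.78 and -4.42 and is 1 of the genes at or below -3.

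The signalling and synthesis genes of the wall did not share that rise. In the cell wall integrity pathway, which runs from surface sensors through Pkc1 to the kinase Slt2, 5 of 25 genes rose, or 8 with centred arrays, and 6 fell, with a median of -0.05. PKC1 rose at 0.78 and 0.91 and the sensor SLG1 fell at -0.96 and -1.05. Of 35 genes of glucan, chitin and mannan synthesis 6 rose and 9 fell, and the number falling was 4 or 6 without 1 of the ERG6 deletion arrays. KRE2, a mannosyltransferase, rose to 1.09, and CDA1, a chitin deacetylase of spores, fell to -0.98.

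In the secretory pathway the numbers stayed near those of all genes, with single members that moved strongly. Of 19 chaperones and oxidoreductases of the endoplasmic reticulum 6 rose and 5 fell, or 8 and 3 with centred arrays. ERO1 fell to -2.27 and KAR2, the Hsp70 of this compartment, to -0.95 ± 0.10, while PDI1, the disulfide isomerase that Ero1 oxidises, rose to 0.69 ± 0.08. KAR2 was lower in the snq2 deletion strain, at -2.13. CDC48, the ATPase that extracts proteins for degradation, rose at 1.20 and 1.09 and DER1 fell at -1.07 and -0.77. GET3, which inserts tail-anchored proteins, rose at 1.03 and 1.14.

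Glycosylation and vesicle coats gave mixed counts as well. Of 27 genes of N-glycosylation 7 rose and 9 fell, or 4 to 11 fell without 1 ERG6 deletion array, with WBP1, a subunit of oligosaccharyltransferase, at 0.95. Of 23 genes of GPI anchoring and O-mannosylation 6 rose and 6 fell, with GPI16 at 1.04 and the mannosyltransferase PMT6 at -1.37. Of 21 genes of COPII and COPI coats 8 rose and 4 fell, and only 1 or 2 fell without an ERG6 deletion array. SAR1, the GTPase of COPII, rose to 0.71 and SEC31, a coat subunit, fell to -0.73. Of 16 genes of the exocyst and its SNAREs 1 rose and 3 fell, or 2 or 3 rose without 1 ERG6 deletion array.

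Of 19 subunits and assembly factors of the proton pump that acidifies the vacuole 9 rose (47.4%, against 23.2% of all genes) and 1 fell, or 7 or 8 rose and 1 to 3 fell without 1 ERG6 deletion array. VMA4 gave 0.81 and 1.05 and VMA6 0.93 and 0.80, and VMA21, an assembly factor, fell at -0.51 and -0.57. Of 28 genes of vacuolar sorting 7 rose and 7 fell.

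The lists of protein folding differed by compartment, beside 23.2% of all genes rising and 29.4% falling outside the genes at or below -3. Of 10 chaperones of the mitochondrial matrix none rose and 8 fell (80%), or 5 without 1 of the ERG6 deletion arrays and 6 with centred arrays. MDJ1, the Hsp40 partner of matrix Hsp70, gave -0.94 and -0.86, TIM44, which holds that Hsp70 at the import channel, -0.80 and -1.02, and PAM16 -0.66 and -0.65. Of 8 disaggregase and small heat shock protein genes 5 fell (62.5%) and 2 rose. HSP30, a plasma membrane heat shock protein, gave -1.55 and -1.45, BTN2, a protein sorting aggregates, -0.93 and -0.97, and HSP104, the disaggregase, -0.44 and -0.41. HSP26 and HSP12 rose to 0.40 and 0.47, and both calls were lost without 1 ERG6 deletion array.

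In the cytosol 9 of 21 genes of the Hsp70 system fell (42.9%) and 5 rose (23.8%), or 3 or 4 rose without 1 ERG6 deletion array. SSA4, a stress-induced Hsp70, gave -1.52 and -1.78 and YDJ1, the main Hsp40, -1.67 and -1.48, with lower means of -2.07 and -1.90 in the snq2 deletion strain. Of 15 genes of Hsp90 and its partners 6 fell (40%) and 5 rose (33.3%), or 2 rose without either ERG6 deletion array. HSP82 and HSC82, which encode Hsp90, fell to -1.21 and -0.72, while the co-chaperone SBA1 rose to 1.19 ± 0.11. Signal shared between HSP82 and HSC82 is not separated here. Of 15 genes of the CCT chaperonin and prefoldin 3 rose (20%) and 6 fell (40%), and between 1 and 4 fell without an ERG6 deletion array.

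Most core subunits of the proteasome rose. Of 14 core subunits 12 rose (85.7%, against 23.2% of all genes) and 2 fell. The array medians were 0.53 and 0.63, against 0.27 and 0.38 in the snq2 deletion and -0.09 and -0.09 in the parental strain. PRE3 gave 1.03 and 1.26 and PUP2 1.05 and 1.06, and PUP1 and PRE9 fell to -0.53 and -0.48. Without 1 ERG6 deletion array 8 or 9 core subunits rose. Of 28 genes of the regulatory particle and its factors 10 rose (35.7%) and 4 fell (14.3%), or 2 fell without either ERG6 deletion array, and 15 rose with centred arrays. RPT1 and RPT3, ATPases of its base, gave means of 1.38 and 1.43, and RPN6 fell to -0.83. Of 28 autophagy genes 2 rose, or up to 4 without 1 ERG6 deletion array or with centred arrays, and 11 fell (39.3%, against 29.4% of all genes). ATG21, a phosphoinositide-binding protein, fell at -0.90 and -0.99 and ATG32, the mitophagy receptor, at -0.71 and -0.87, while ATG33 rose at 0.92 and 1.06.

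The cytosolic ribosomal protein genes formed the largest group that rose. Of 81 genes of the large subunit 65 rose (80.2%, against 23.2% of all genes) and 3 fell. Of 55 of the small subunit 44 rose (80%) and none fell. The medians on the ERG6 deletion arrays were 1.04 and 0.98 for the large and 0.96 and 0.92 for the small subunit. The parental medians were 0.34 and 0.24 for the large and 0.22 and 0.15 for the small subunit. Those of the snq2 deletion strain were -0.36 and -0.35 for the large and -0.37 and -0.36 for the small subunit. The 3 strains thus lay in an order in which the ERG6 deletion strain was highest and the snq2 deletion strain lowest. The ERG6 deletion response exceeded the mean of the other 2 for 67 of 81 and 44 of 55 genes (82.7% and 80%, against 27% of all genes).

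RPL3 gave 1.84 and 1.69, RPL40B 1.66 and 1.75, RPS29B 1.54 and 1.53 and RPS29A 1.52 and 1.49. RPS7A and RPS1B had means of 1.40 and 1.53. The large-subunit members that fell include RPP1A, a stalk protein, at -0.76 and -0.71, and RPL22B, at -0.61 and -0.75. Many of these genes are paralogs of nearly the same sequence, and probe sequences were not used here, so the share of each copy is uncertain.

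Genes that build ribosomes did not rise with the ribosomal proteins. Of 62 genes of the small subunit processome and its snoRNPs 4 rose and 21 fell (6.45% and 33.9%). Of 70 assembly factors of the large subunit 6 rose and 27 fell (8.57% and 38.6%). Of all genes 23.2% rose and 29.4% fell outside those at or below -3. With centred arrays the numbers of the 2 lists were 8 and 14, and 10 and 21, while 27.4% of all genes rose and 24.8% fell. Without 1 ERG6 deletion array 13 to 16 and 19 to 22 genes fell. The medians were -0.22 and -0.24, against -0.11 for all genes. SNU13 gave -1.34 and -1.56, NSR1, a nucleolar protein of rRNA processing, -1.29 and -1.39, and URB2 -1.15 and -1.03. UTP20 and UTP14, processome components, rose to 1.36 and 1.26, and NOP2, an rRNA methyltransferase, to 0.94. Of 26 subunits of RNA polymerases I and III 5 rose, or 1 to 3 without 1 ERG6 deletion array, and 11 fell, with RPC11 at -0.89 and RET1 at -0.75.

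Translation factors were divided by step. Of 20 elongation and termination factors 11 rose (55%) and 4 fell, or 1 to 4 fell without 1 ERG6 deletion array. STM1 led them, EGD2, a subunit of the nascent chain complex, gave 1.07 and 1.14, and YEF3, the fungal elongation factor, fell at -0.82 and -0.71. Of 29 initiation factors 9 rose and 8 fell. CDC33, the cap-binding protein, rose to 0.92 and DED1, an RNA helicase of scanning, fell to -1.56 ± 0.10. Of 21 cytosolic aminoacyl tRNA synthetases 9 rose and 2 fell, or 1 or 2 fell without 1 ERG6 deletion array, with GUS1 at 1.26. Mitochondrial ribosomal proteins did not follow the cytosolic ones: 10 of 73 rose (13.7%, against 23.2% of all genes) and 27 fell (37%, against 29.4%). With centred arrays, where 27.4% of all genes rose and 24.8% fell, 15 of the 73 rose and 18 fell.

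Respiratory genes rose in the ERG6 deletion strain. In complex II and the alternative dehydrogenases, which pass electrons to ubiquinone, 10 of 11 genes rose (90.9%, against 23.2% of all genes) and none fell. SDH3 gave 1.80 and 1.59 and SDH2 1.05 and 1.10, and GUT2, the mitochondrial glycerol-3-phosphate dehydrogenase, 1.07 and 1.22. Of 9 nuclear subunits of cytochrome c oxidase 8 rose. COX12 gave 1.34 and 1.44 and COX13 1.00 and 1.02, and COX5B, the isoform of low oxygen, fell at -0.66 and -0.73 while its counterpart COX5A rose at 0.96 and 0.72. Of 21 ATP synthase subunits and carriers 16 rose (76.2%) and 3 fell, with ATP15 at 1.39 and ATP7 at 1.35. The list medians on the parental arrays were -0.73 and -0.87 for cytochrome oxidase, -0.61 and -0.50 for complex II and -0.40 and -0.30 for ATP synthase. On the snq2 deletion arrays they were 0.49 and 0.47, 0.67 and 0.91, and 0.12 and 0.19.

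Other parts of the mitochondrion differed. In complex III and cytochrome c 6 of 14 genes rose and 4 fell. QCR6 and QCR7 gave means of 1.25 and 1.31, and QCR10, a small subunit, fell at -1.34 and -1.09 against 2.13 and 2.04 in the parental and 1.05 and 1.05 in the snq2 deletion strain. Of 23 cytochrome oxidase assembly genes 3 rose and 6 fell, or 5 and 3 with centred arrays. Of the 8 genes encoded in mitochondrial DNA 1 rose and 2 fell, or none to 1 and 1 or 2 without 1 ERG6 deletion array. OLI1, an ATP synthase subunit, fell at -0.71 and -0.84, and COX1 gave 0.41 and 0.89, with its call lost without replicate 2, against a parental mean of 4.01.

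**Figure D4:**
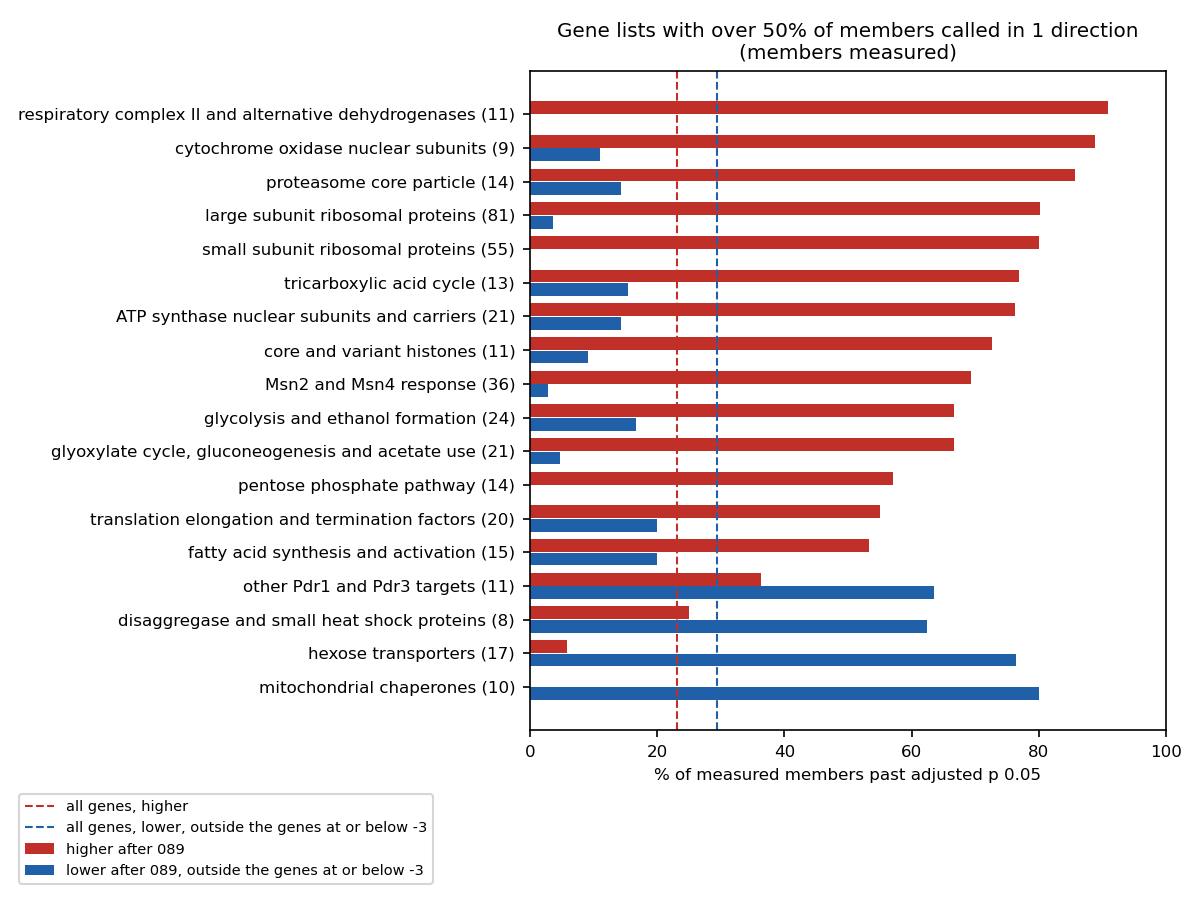
Share of measured members past an adjusted p of 0.05 in the response of the ERG6 deletion strain, higher (red) and lower (blue, outside the genes at or below -3), for the 18 of 86 gene lists with over 50% of members called in 1 direction; dashed lines give the shares of all genes, 23.2% and 29.4%. On the higher side 14 lists passed 50%, from respiration to fatty acid synthesis, and the other 4 did so on the lower side.

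Carbon genes of growth without glucose rose as well, in a medium made with glucose. In the tricarboxylic acid cycle 10 of 13 genes rose (76.9%, against 23.2% of all genes) and 2 fell. Without 1 ERG6 deletion array 1 or 2 of the 13 fell. FUM1, fumarase, gave 1.38 and 1.43 and MDH1, the mitochondrial malate dehydrogenase, 1.39 and 1.27, and IDH1, a subunit of isocitrate dehydrogenase, fell at -0.46 and -0.61. Of 21 genes of the glyoxylate cycle, gluconeogenesis and acetate use 14 rose and 1 fell, or none fell without either ERG6 deletion array. FBP1, fructose-1,6-bisphosphatase, gave 1.46 and 1.48, ICL1, isocitrate lyase, 1.38 and 1.40, and PCK1, phosphoenolpyruvate carboxykinase, 1.29 and 1.25. VID24, whose product directs the breakdown of Fbp1, was among the lowest genes, as given above. The median of this list was 0.79 and 0.82 in the ERG6 deletion strain, near 0.99 and 0.98 in the snq2 deletion strain and below 0 in the parental strain, at -0.35 and -0.39.

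Hexose transporters fell. Of 17 genes 13 fell (76.5%, against 29.4% of all genes outside those at or below -3) and 1 rose. Probe sequences were not used here, so signal shared between similar transporter genes is not separated. HXT1, the low-affinity transporter of high glucose, gave -1.20 and -1.52, HXT3 -1.30 and -1.15, HXT6 -1.04 and -1.08 and HXT7 -1.20 and -1.21. HXT5, which is expressed in slow growth, was the one that rose, at 0.82 and 1.32. HXT6 and HXT7 are nearly identical and cannot be told apart here. Their means in the other strains ranged from -1.29 to -1.10, and neither difference from those strains passed. Of the sensors and kinases of glucose repression, 11 of 30 rose and 6 fell, or 2 to 5 fell without 1 ERG6 deletion array. GLK1, glucokinase, rose at 1.35 and 1.10, and PDE2, the high-affinity cAMP phosphodiesterase, fell at -1.80 and -2.52.

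Glycolysis and ethanol formation had 16 of 24 genes rising (66.7%, against 23.2% of all genes) and 4 falling. GPM1, phosphoglycerate mutase, gave 1.30 and 1.22 and ALD4, the mitochondrial acetaldehyde dehydrogenase, 1.41 and 1.45, while CDC19, pyruvate kinase, fell at -0.74 and -0.94. Here the parental list median was also high, at 0.84 and 0.71. In the pentose phosphate pathway 8 of 14 rose (57.1%), 1 was among the genes at or below -3 and none of the rest fell. ZWF1, the first enzyme, had a mean of 0.65 ± 0.08. Of 20 trehalose and glycogen genes 10 rose and 3 fell, or 5 or 6 rose and 1 fell without an ERG6 deletion array. GLC3, the glycogen branching enzyme, gave 1.24 and 1.33 and GPH1, glycogen phosphorylase, 1.01 and 1.28.

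Glycerol synthesis was divided between its steps. GPD1, the first enzyme, rose at 0.98 and 1.31, and the phosphatases of the next step, GPP1 and GPP2, fell at -1.59 and -1.63 and at -2.81 and -2.85. Without probe sequences, signal shared between GPP1 and GPP2 is not separated here. HOG1, the kinase of the osmotic pathway, fell at -1.19 and -1.35. GCY1, a glycerol dehydrogenase, rose at 1.00 and 0.88. GPP1 and HOG1 were lower in the snq2 deletion strain, with means of -2.11 and -1.98, and near 0 in the parental strain, at 0.03 and 0.02. Over the 22 genes of the list 4 rose and 8 fell.

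The general stress genes controlled by Msn2 and Msn4 rose in 25 of 36 cases (69.4%, against 23.2% of all genes), and 1 fell. Without 1 ERG6 deletion array up to 2 fell. NCE103 and RGI1 led the rise, and CTT1, the cytosolic catalase, gave 1.36 and 1.39. SOD2, the mitochondrial superoxide dismutase, gave 1.38 and 1.26, and DDR2 1.04 and 0.98. The member that fell was MSN4 itself, at -1.55 and -1.69, which was also low in the other strains. The list median of 0.97 and 0.76 in the ERG6 deletion strain lay close to 0.94 and 1.14 in the snq2 deletion strain, while the parental arrays gave -0.70 and -0.68. Of 34 genes of thioredoxin, glutathione and peroxide defence 14 rose and 12 fell. TRX1, a thioredoxin, rose at 1.55 and 1.48 and MXR2, a methionine sulfoxide reductase of mitochondria, at 1.51 and 1.43, while GSH2, glutathione synthetase, fell at -0.84 and -0.80.

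Among amino acid genes the counts of most pathways stayed near those of all genes. In branched-chain synthesis 3 of 11 rose and 1 fell, or up to 2 fell without 1 ERG6 deletion array. LEU4 and LEU9 encode the same enzyme activity, isopropylmalate synthase, and moved apart, LEU4 at 1.40 and 1.33 and LEU9 at -1.27 and -1.36. LEU9 was at 1.43 and 1.47 in the parental and 1.13 and 1.12 in the snq2 deletion strain. ARG3, ornithine carbamoyltransferase, rose to 1.12 and TRP3 to 1.13, and HOM3, aspartate kinase, fell to -1.47 and GLY1, threonine aldolase, to -1.33. In sulfate assimilation and methionine synthesis 12 of 31 fell and 4 rose, with STR2, which makes cystathionine, at -1.50 and -1.56 and SAM1, S-adenosylmethionine synthetase, at -1.22 and -1.21. The methyl donor that Sam1 makes is also the substrate of Erg6 in strains that hold it. Of 22 amino acid permeases 2 rose, or up to 5 without 1 ERG6 deletion array or with centred arrays, and 9 fell, with BAP3 at -1.26 and -1.50.

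For nitrogen, ions and phosphate the lists moved in both directions. Of 33 genes of ammonium and nitrogen source use 10 rose and 9 fell, or 6 or 7 fell without 1 ERG6 deletion array, with GDH2, the NAD-dependent glutamate dehydrogenase, at 1.24 and the permease GAP1 at -0.74. Of 31 iron genes 6 rose and 10 fell, or 6 fell with centred arrays. FIT2, a wall mannoprotein that holds siderophores, rose at 1.00 and 0.99, and CCC1, which loads iron into the vacuole, fell at -1.21 and -1.10. Of 27 phosphate genes 7 rose and 6 fell, or 4 to 7 rose and 2 to 4 fell without 1 ERG6 deletion array. Of 26 genes of proton, sodium, potassium and calcium transport 6 rose and 6 fell, yet 17 were higher than the mean of the other strains (65.4%, against 27%). Their list medians were -0.63 and -0.34 on the parental and -0.41 and -0.49 on the snq2 deletion arrays. HRK1, a kinase that activates the plasma membrane proton pump, gave -1.52 and -1.37, and the sodium pump gene ENA2 rose at 1.12 and 1.21.

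Most histone genes rose. Of 11 core and variant histones 8 rose (72.7%, against 23.2% of all genes) and 1 fell. Probe sequences were not used here, so signal shared between similar histone genes is not separated. HHT2 gave 1.20 and 1.34, HTB2 1.30 and 1.15 and HTB1 1.14 and 1.01, and HTA2 fell at -0.50 and -0.76, with its call lost without replicate 2. Of 49 DNA replication genes 6 rose and 21 fell (42.9%, against 29.4% of all genes). With centred arrays, where 24.8% of all genes fell, 7 rose and 15 fell, and without 1 ERG6 deletion array 4 to 9 rose and 14 or 15 fell. SLD2 was the lowest, ORC5, of the origin recognition complex, gave -0.95 and -1.03, and POL12, a polymerase alpha subunit, rose at 0.85 and 1.14. RNR4, a subunit of ribonucleotide reductase, rose at 1.45 and 1.35. Of 33 cyclins and regulators 5 rose and 5 fell, or 3 or 4 each without 1 ERG6 deletion array and 2 fell with centred arrays, with SWI5, an activator of late mitosis, at -0.75 beside the high CLN3. Of 23 genes of septins and cytokinesis 2 rose and 8 fell, or 4 or 5 fell without 1 ERG6 deletion array, and 5 rose and 4 fell with centred arrays, with the kinase CLA4 at -1.29 and -1.34.

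Of 39 meiosis and sporulation genes 6 rose and 17 fell (43.6%, against 29.4% of all genes outside those at or below -3). With centred arrays, where 24.8% of all genes fell, 10 of the 39 fell. SPO74 gave -1.51 and -1.75, and SPS100, a spore wall protein, rose at 1.14 and 1.38. Of 40 genes of the alpha cell type and the pheromone response 7 rose and 11 fell (27.5%, near the 29.4% of all genes), or 7 fell with centred arrays. STE11, a kinase of the pheromone pathway, rose at 1.03 and 0.86.

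The response of the ERG6 deletion strain was then set against the mean of the parental and snq2 deletion responses in the same fit. Of 6362 genes 3676 (57.8%) differed, 27% higher and 30.8% lower, and the same test called 53.8% of empty and 70.8% of Blank spots. Across genes the ERG6 deletion arrays correlated with the parental arrays at r = 0.002 to 0.054 and with the snq2 deletion arrays at 0.235 to 0.257, whereas the parental and snq2 deletion arrays correlated at 0.387 to 0.451. Genes are not independent replicates, and no p is given for these values.

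The 10 genes with the clearest higher response include 4 of the cell wall, YPS1, TIR1, BGL2 and PIR3, given above. NCW1, another wall protein, was at 0.75 and 0.62 in the ERG6 deletion strain, -1.71 and -1.67 in the parental strain and at a mean of -2.52 in the snq2 deletion strain, a difference of 2.79 ± 0.10 (adjusted p 0.00019). CKB2, a regulatory subunit of casein kinase 2, was at 0.60 and 0.66 against values from -1.97 to -1.54. YRR1 differed by 3.12 ± 0.15, RPL10, a late-joining ribosomal protein, by 1.99 ± 0.10, and GSR1 and TDA7 by 2.11 and 2.33. In 8 of these genes other than YRR1 and PIR3 the treated ERG6 deletion cells were higher and treated cells of both other strains were lower than untreated cells on every array.

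The 10 genes with the clearest lower response mostly had values above 0 in the other strains. CWC23, a spliceosome component, was at -0.77 and -0.86 against 3.57 and 3.54 in the parental and 1.98 and 1.86 in the snq2 deletion strain, a difference of -3.55 ± 0.10. TEL1, the telomere kinase, was at -0.58 and -0.68 against 2.91 and 2.75 and against 1.53 and 1.69. SMP3, a mannosyltransferase of GPI anchors, was at -0.19 and -0.42, not past the threshold, against values from 2.04 to 2.90. LEU9, QCR10 and CCC1, given above, had differences of -2.60, -2.78 and -2.42. HEM25, the mitochondrial glycine carrier of heme synthesis, and RIO2, a kinase of small subunit maturation, differed by -2.40 and -2.80. Only SLD2 and VID24, at -2.57 and -2.22, had means between -0.56 and 0.42 in the other strains and of -2.27 and -2.59 in the ERG6 deletion strain.

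**Figure D5:**
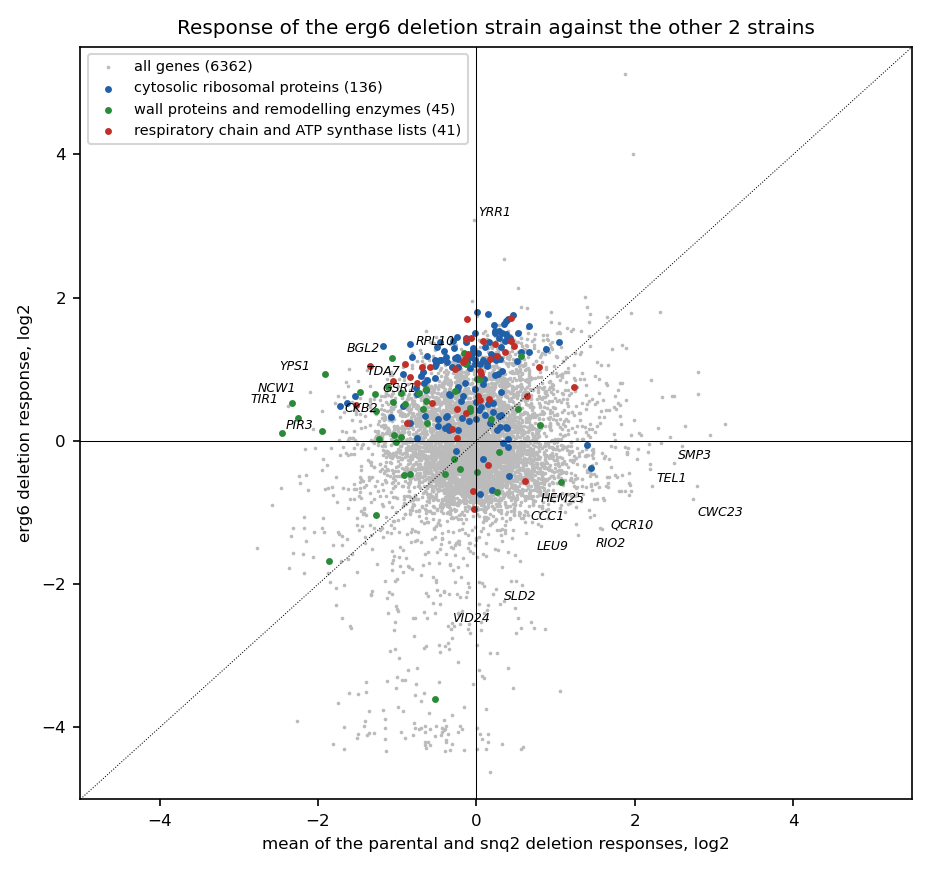
Mean log2 response of the ERG6 deletion strain (vertical) against the mean of the parental and snq2 deletion responses (horizontal); grey points are all genes, coloured points the members of 3 groups of lists, and names mark the 20 genes with the clearest difference. Most ribosomal and respiratory genes lie above the dotted line of equal response, wall genes mostly in the upper left and most named genes of lower response at the right.

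The genes at or below -3 are described apart, without a test, since the values chose them. They number 183 on either ERG6 deletion array: 73 on both, 30 on replicate 1 alone and 80 on replicate 2 alone. The other 4 arrays had between 5 and 31 genes at or below -3. The values in the cluster repeat: 103 genes on replicate 1 took 30 distinct values and 153 on replicate 2 took 33. At or below -3, 7 and 5 genes on the parental arrays took 6 and 4 values, and 14 and 31 on the snq2 deletion arrays took 14 and 31. Values repeat over whole arrays too. All 6362 genes took 4361 and 4378 distinct values on the ERG6 deletion arrays and from 4505 to 6049 on the others, with 6049 on snq2 deletion replicate 2. The genes just inside and just outside the threshold were at -3.17 and -2.97 on replicate 1 and at -3.03 and -2.99 on replicate 2. Of the 183 genes 61 (33.3%) did not match the gene table, against 8.43% of all genes, and 12 Blank and 2 empty spots reached -3 as well. Genes low on 1 array alone had medians of -0.77 and -0.68 on the other array.

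Among those low on both arrays that have a standard symbol, the lowest was KTI12, a factor of tRNA wobble modification, at -4.52 and -4.72. BUD16, a putative pyridoxal kinase, gave -4.36 and -4.29, and SVP26, a retention factor of the early secretory pathway, and RMA1 both gave -4.15 and -4.46. CKS1, the small partner of Cdc28, RPA34, a subunit of RNA polymerase I, PET111, a translation activator of COX2, and RPB9, a subunit of RNA polymerase II, all gave -4.08 on replicate 1. RRG9 and RRT2 completed the 10 lowest. KTI12 and SVP26 were above 0 on both parental arrays, at 0.46 and 0.38 and at 0.52 and 0.25. The largest gaps between replicates came from the same cluster. IPI1 was at 3.61 and -4.25, ARV1 at 1.26 and -4.25, UTP22 at 1.14 and -4.29, VRL1 at 0.83 and -4.25 and TDA11 at -4.04 and 1.03. The signs of these 5 genes rest on a single array, and none of them passed the threshold.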

How the data were processed

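Every feature of an array carries 1 signed number in the table the authors deposited, 7045 features in all. These deposited numbers were taken, from their range and the titles, as log2 ratios that the authors computed from the 2 channels. Background correction, normalisation, filters and log base were not stated in the sources used here, and the labels name a GenePix 4000B scanner. The 144 Blank and 539 empty rows were set apart, leaving 6362 genes, of which 5826 matched the RefSeq gene table (assembly R64), used for names alone.

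With limma 3.58.1 under R 4.3.3, a linear model of 1 mean per strain was fitted by lmFit to all 6 arrays, with no replicate block, and moderated by eBayes (3 residual, 2.45 prior degrees of freedom). The tests were two-sided and adjusted by Benjamini-Hochberg over all genes, with a threshold of 0.05. The code was checked on simulated data. Precision is limited by 2 arrays per strain, and signal over background was not used here.

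The members and the 86 gene lists (2150 genes, overlapping between lists, 23 listed names not measured) were chosen with earlier results of these data known. Named were the 15 highest and lowest responses, ranked by the array nearer 0, the 10 highest and lowest differences, ranked by the smallest gap between strains, up to 4 members per list by p, the genes deleted or mutated in the strains with the main drug and sterol regulators, the 10 lowest genes at or below -3 and the 5 largest replicate gaps. Other members were named for their role after their values were seen. Promoter motifs and sequences were not analysed here.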

Additional observations from a re-analysis of the deposited data

Results flagged for a closer look

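The response of the ERG6 deletion strain differed from the mean of the other 2 strains, by the limma test of the difference itself, in 3676 genes. With 57.8% of genes past the threshold and most Blank spots past it too, the count says little of any single gene. The clearest higher responses differed by 2.85 in YPS1, 2.79 in NCW1, 2.38 in CKB2, 2.85 in TIR1, 2.22 in BGL2, 2.57 in PIR3, 3.12 in YRR1, 2.11 in GSR1, 2.33 in TDA7 and 1.99 in RPL10 on the log2 scale. The clearest lower responses differed by -3.55 in CWC23, -2.60 in LEU9, -2.57 in SLD2, -2.80 in SMP3, -2.78 in QCR10, -2.85 in TEL1, -2.40 in HEM25, -2.42 in CCC1, -2.80 in RIO2 and -2.22 in VID24. Each of these 20 differences kept its direction and its call when any 1 of the 6 arrays was left out. The genes were chosen for the gap between strains on these same arrays, so this is no separate support for them.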

How the results depend on the processing

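The count of responding genes stayed within 1.5 times of 3478 under centred, scaled and quantile-normalised arrays, robust eBayes, array weights, either reduced gene set and the replicate block, and the count of 3676 differences did too. Without 1 array in turn the response count ranged from 2943 to 3192 and the difference count from 3050 to 3531, with 1325 to 1342 higher and 1618 to 1853 lower responses and 1428 to 1655 higher and 1622 to 1876 lower differences. A fit to the 2 ERG6 deletion arrays alone called 1946 genes (872 higher, 1074 lower), with fewer degrees of freedom. A minimum change of 1.5-fold left 612 (330 higher, 282 lower) and 1331 differences (602 higher, 729 lower). Of 18 lists with over 50% of members called in 1 direction, these settings left 9 and 1, and leaving out 1 array left 16 to 18. Replicate numbers did not pair the arrays (correlations of deviations between strains 0.095, -0.002 and -0.042), and the replicate block called 3306 responses and 3534 differences. Of 402 named gene results 365 kept their side and direction under the alternatives other than the fit to 2 arrays and the 1.5-fold minimum. In the fit to the 2 ERG6 deletion arrays alone 55 calls were lost, and with the 1.5-fold minimum 202. Most named genes were chosen by their values or p on these same arrays, so the share kept does not stand for all genes. Turned round were IPI1 and UTP22, at 3.61 and 1.14 without ERG6 deletion replicate 2 and -4.25 and -4.29 without replicate 1, and TDA11, at 1.03 without replicate 1 and -4.04 without replicate 2, each then resting on 1 array. A threshold of -2.5 or -3.5 in place of -3 gave 219 or 174 genes. The planned motif search was not run. Only 2 arrays, no dye swap and called control spots limit what single calls show.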

Other observations

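Genes of RNA processing and of organelles outside the comparisons above moved in both directions in the ERG6 deletion strain. Of 59 spliceosome genes 21 fell and 10 rose, with PRP46 at -1.31 and -1.08 and RSE1 at -1.08 and -1.09. In the cytoplasmic decay of mRNA 8 of 28 rose and 6 fell. PAN2, a deadenylase subunit, and LSM1, of the decapping complex, both gave -0.88 and -0.86, and NMD2, of nonsense-mediated decay, rose at 0.93 and 0.79. Of 24 genes of the nuclear exosome and RNA export 8 fell, or 5 to 8 without 1 ERG6 deletion array, and 2 rose, among them DBP5, an export helicase, at 0.82 and 1.05. Of 40 genes of RNA polymerase II and Mediator 9 rose and 8 fell, or 5 or 6 fell without 1 ERG6 deletion array, with the Mediator subunits SIN4 and NUT2 at means of -0.83 each.

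Of 41 genes of peroxisomes and fatty acid oxidation 14 rose (34.1%) and 7 fell. PEX11, which promotes peroxisome division, gave 1.10 and 1.37, and the list median was 0.27 and 0.10 on the ERG6 deletion arrays against 0.37 and 0.57 on the snq2 deletion arrays. Of 29 mitochondrial import genes 10 rose and 11 fell, with TIM54 at 1.16 and 1.32 and MAS1, a subunit of the processing peptidase, at -1.05 and -1.28. Without 1 ERG6 deletion array 6 or 8 of them rose and 5 or 7 fell. Of 21 genes of iron-sulfur cluster assembly 1 rose and 7 fell, or up to 2 rose without 1 ERG6 deletion array, with YAH1, the ferredoxin, at -0.86 and -0.88. Of 18 genes of coenzyme Q and heme synthesis 3 rose and 2 fell, or 1 to 3 fell without 1 ERG6 deletion array, COQ5 giving 1.33 and 1.20. Of 23 purine genes 4 rose and 9 fell, or 6 fell without either ERG6 deletion array, with the purine permease FCY2 at -1.18 and -1.44, and of 21 pyrimidine and deoxynucleotide genes 6 rose and 3 fell, with URA2 at 1.03 and 1.18.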
